A study of Drosophila melanogaster with 14 samples.

Results

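Embryos without spalt were compared with embryos that kept a functional copy, both taken from crosses of one deficiency stock at stage 16. The 3 homozygous libraries (Ho16a, Ho16b and Ho16c) and the 2 heterozygous libraries (He16ab and He16c) were the 5 of 14 libraries of the series that the labels give as homozygous or heterozygous at stage 16, chosen because the pair comes closest to a shared stock background. The Ho16 embryos were homozygous for the deficiency Df(2L)32FP-5, which removes salm and salr, and were picked as embryos without GFP from a stock that carries it over CyO-GFP. The He16 embryos were the GFP-negative progeny of females of that stock and white males, so they carried 1 copy of the deficiency and a paternal genome from another stock, while both groups had mothers of the deficiency stock. Wild-type Oregon R embryos of the same stage (WT16, 2 libraries) and the Ho17 and He17 libraries of stage 17 are used below only to place the values. The study states that the deficiency stock was back-crossed to the balancer stock beforehand. Each library was made from polyadenylated RNA of a pool of 50 whole embryos, so a change in the number of cells of a type and a change in the RNA of each cell cannot be told apart. The letters stand for different experiments of each genotype, and the study grouped technical replicates in the libraries with the letters ab. The sources do not say whether a letter marks the same experiment in both genotypes. Below, within experiment c means Ho16c against He16c. Within experiments a and b means the average of Ho16a and Ho16b against He16ab.

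The genes spalt major (salm) and spalt-related (salr) encode zinc finger transcription factors of the Sall family, which is conserved from flies to vertebrates. In the fly embryo they act in the head and tail ectoderm, in the branching of the trachea, in the nervous system and sense organs, and in the recruitment of oenocytes. Oenocytes are clusters of secretory cells below the lateral epidermis that make very-long-chain fatty acids and hydrocarbons.

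The study checked its mutant samples by PCR for salm, a gene of chromosome arm 2L, with a pair of primers of 21 bases each. They are shown, 5′ to 3′ in lower case, because this transcript is the one whose loss defines the comparison.
salm forward primer: caccaccgtcacagccacatg
salm reverse primer: cgagttatcgttgctgtgcgg

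The values below are reads recovered from the deposited table and divided by each library's size factor, called normalised reads. The 5 libraries held 4760303 (Ho16a), 6042900 (Ho16b) and 15290052 (Ho16c) reads on genes, against 14592416 (He16ab) and 21663275 (He16c). The Ho16 libraries stood further from each other than the He16 libraries did. Over genes averaging at least 10 CPM (reads scaled to a common library total), the SD of the log2 difference was 1.13 between Ho16a and Ho16b, 1.44 between Ho16b and Ho16c and 2.03 between Ho16a and Ho16c, against 0.69 between the He16 libraries. The Ho16c library had 0 reads for 57 genes that had at least 10 CPM in both He16 libraries, whereas Ho16a and Ho16b had 0 such genes. A value of 0 in Ho16c is therefore given below beside the other Ho16 libraries.

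The spalt genes were close to absent from the homozygous libraries. For salm, there were 75.4, 14.4 and 0.919 normalised reads in Ho16a, Ho16b and Ho16c (19, 7 and 1 reads), against 1119 and 1126 in He16ab and He16c. For salr, there were 75.4, 10.3 and 0 normalised reads in the Ho16 libraries (19, 5 and 0 reads), against 779.9 and 724.5 in He16. Every Ho16 library lay far below both He16 libraries, and the He16 libraries nearly coincided. The reads left in Ho16a were not tested for their source; a count of 0 in Ho16c allows up to 3 reads, counting error only.

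On the log2 scale of the deposited values, the Ho16 minus He16 difference was -6.09 ± 1.09 for salm and -5.80 ± 1.001 for salr (± SE, n = 3 and 2 libraries). The SE draws on the spread within the conditions of all 14 libraries. The limma test over all 11584 tested genes gave Benjamini-Hochberg adjusted p-values of 0.367 for both. An exact negative binomial test, the authors' tool rewritten and applied to recovered reads, gave Benjamini-Hochberg adjusted p-values of 2.88e-14 for salm and 1.34e-11 for salr. Within experiments a and b the difference (Ho16 minus He16) was -5.25 for salm and -4.70 for salr, and within experiment c it was -7.75 and -8.05. Library weights were 0.207 in Ho16a, 3.24 in Ho16b and 0.129 in Ho16c, so the weighted Ho16 mean rests mostly on Ho16b. With these weights, limma gave an adjusted p of 0.00126 for salm and 1.09e-04 for salr. Without Ho16c, the limma adjusted p was 0.065 for salm and 0.0332 for salr.

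The neighbours of the pair in the Release 6 gene order did not share differences of this size. For sala, the gene next to salm, there were 1243, 1446 and 615.4 normalised reads in Ho16, against 295.2 and 436.8 in He16, with 112.7 and 136.2 in WT16. All Ho16 values lay above both He16 values, and the He16 values lay above both WT16 values. The Ho16 minus He16 difference of sala was 1.93 ± 0.87 (log2, SE; limma adjusted p = 0.71, exact test adjusted p = 0.00148), so it passed neither test. Cog8, which encodes a subunit of the Golgi tethering complex COG, had 1139, 398.4 and 0 normalised reads in Ho16, against 359.6 and 178.8 in He16. It was above both He16 libraries in Ho16a and Ho16b and undetected in Ho16c. The difference of Cog8 thus changed sign without Ho16c. For spz4, a gene of the Spätzle family, values were 1155, 1711 and 3988 in Ho16, against 2515 and 2529 in He16, and the ranges overlapped. Dlg5, a gene of the membrane-associated guanylate kinase family, had 1191, 1559 and 2465 in Ho16, against 2637 and 2784 in He16, and lay below He16 in every library, by -0.93 ± 0.38 on the log2 scale (limma adjusted p = 0.71).

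**Figure D1:**
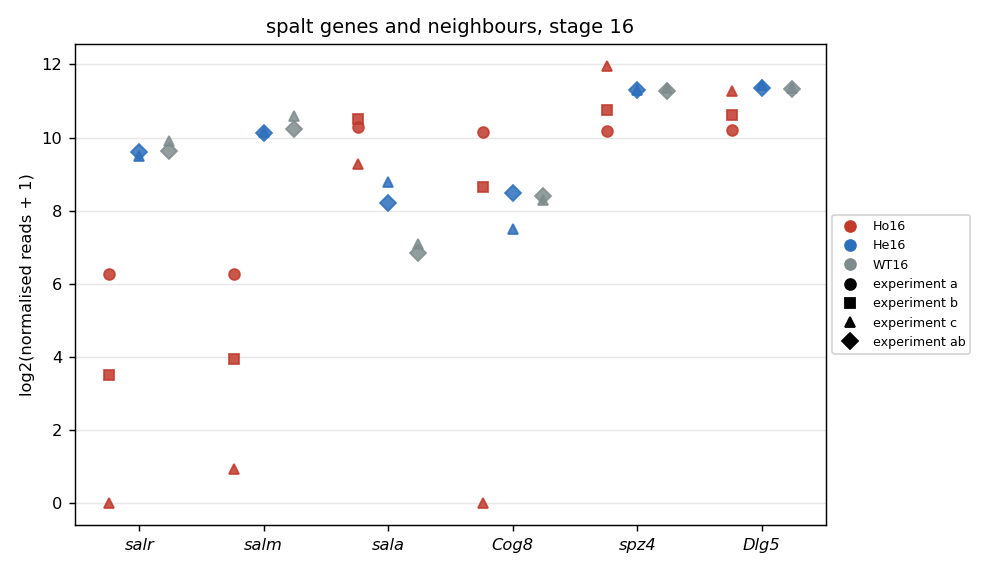
Log2 of normalised reads plus 1 (y axis) for salr, salm, sala and neighbouring genes (x axis) in each stage 16 library, with Ho16 in red left of He16 in blue and WT16 in grey; symbols give the experiment. salr and salm sit far below He16 in all 3 Ho16 libraries, sala sits above it, and Cog8 is at 0 in Ho16c only.

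Across all genes, limma called 0 of 11584 (0%) at an adjusted p below 0.001, the threshold of the study, and 0 at 0.05. At an unadjusted p below 0.05 it found 306 genes higher and 443 lower in Ho16. The exact negative binomial test called 85 genes at 0.001, of which 77 (0.665%) were higher and 8 (0.0691%) lower in Ho16. In 921 genes (7.95%) all Ho16 values lay above both He16 values, and in 1195 (10.3%) they lay below. Scaling to total reads instead of size factors gave a median difference of all tested genes of -0.32 in place of -0.13, and 611 higher and 1508 lower genes without overlap. The share of higher genes among those without overlap was 43.5% with the size factors and 28.8% with total reads, so the direction of a small difference depends on the scaling. The library weights, under which Ho16b counts by far the most within Ho16, led to 9 genes called at 0.001, all lower in Ho16. These were CG1544, CG2233, Cyp4g1, hlk, salr, Cpr64Ad, CG18609, FASN3 and Sdb, the last named here after its values were seen.

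**Figure D2:**
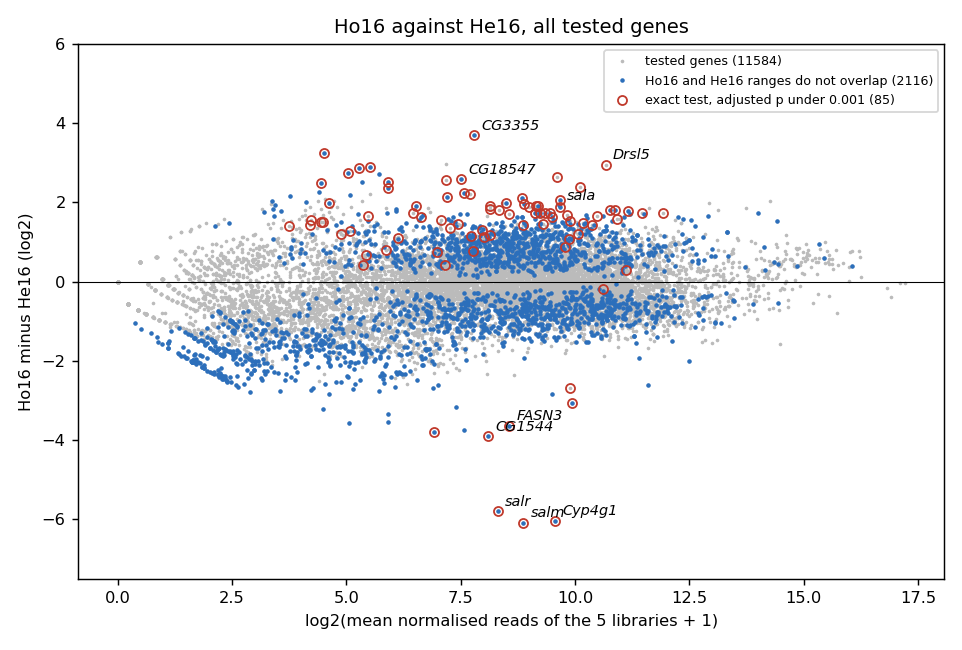
Ho16 minus He16 difference (log2, y axis) against the log2 of the mean normalised reads of the 5 libraries plus 1 (x axis) for the 11584 tested genes. Blue points are the 2116 genes whose Ho16 and He16 ranges do not overlap, and red rings the 85 genes called by the exact test; salm, salr and Cyp4g1 lie near -6, apart from all others.

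Beside the spalt genes themselves, the largest negative differences included enzymes of lipid metabolism known from oenocytes. Cyp4g1, the cytochrome P450 that catalyses the last step of hydrocarbon synthesis in oenocytes, had 361.3, 49.3 and 0 normalised reads in Ho16, against 1439 and 1924 in He16. FASN3, a fatty acid synthase of oenocytes, had 55.6, 47.2 and 168.1 in Ho16, against 547.3 and 1071 in He16. All Ho16 libraries lay below both He16 libraries for these genes, and WT16 was near He16, with 1727 and 1908 for Cyp4g1 and 442.3 and 679.6 for FASN3. The differences were -6.04 ± 1.31 for Cyp4g1 (limma adjusted p = 0.689, exact test adjusted p = 5.39e-12) and -3.63 ± 0.67 for FASN3 (limma adjusted p = 0.367, exact test adjusted p = 1.11e-06). With 0 reads in Ho16c, Cyp4g1 had a difference of -9.90 within experiment c and -3.97 within experiments a and b, while FASN3 had -3.22 and -3.53.

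Of the 16 oenocyte genes listed, all tested, 5 lay below both He16 libraries in every Ho16 library and 0 lay above, beside 10.3% and 7.95% of all tested genes. CG18609, an enzyme of the ELOVL family of fatty acid elongases, had 11.9, 0 and 0 normalised reads in Ho16, against 65.2 and 84.0 in He16. FASN2, another fatty acid synthase, had 31.8, 20.5 and 0 in Ho16, against 49.4 and 39.5 in He16. FarO, a fatty acyl-CoA reductase of oenocytes, had 83.4, 67.8 and 96.5 in Ho16, against 138.4 and 146.0 in He16. These values show the same order of the groups at a low level, and the exact test gave adjusted p-values of 0.0108 for CG18609, 0.468 for FASN2 and 0.651 for FarO.

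The median difference of the oenocyte list was -0.87 (log2), against -0.13 for all tested genes. Within experiments a and b, without Ho16c, the median was -0.90, and within experiment c it was -0.55. It was negative in each Ho16 library set against the He16 mean, at -0.59 in Ho16a, -0.81 in Ho16b and -0.72 in Ho16c. The exact test called 2 of the 16, Cyp4g1 and FASN3. The ranges of the other 11 members overlapped. Among these were CG6660, CG2781, CG9458, CG9459, CG8534, spidey and Cpr, whose values are not shown, and members with broader expression. Hnf4, a nuclear receptor of lipid metabolism, had 718.6, 948.7 and 1455 normalised reads in Ho16, against 1072 and 1004 in He16. Desat1, the main fatty acid desaturase, had 1517, 979.5 and 1073 in Ho16, against 1176 and 1184 in He16. For svp, a nuclear receptor gene of several tissues, there were 563.8, 967.2 and 1545 in Ho16, against 1398 and 1548 in He16. All of these ranges overlapped, as did that of apolpp, the apolipophorin precursor, with 12840, 31280 and 104200 in Ho16, against 54240 and 67330 in He16.

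**Figure D3:**
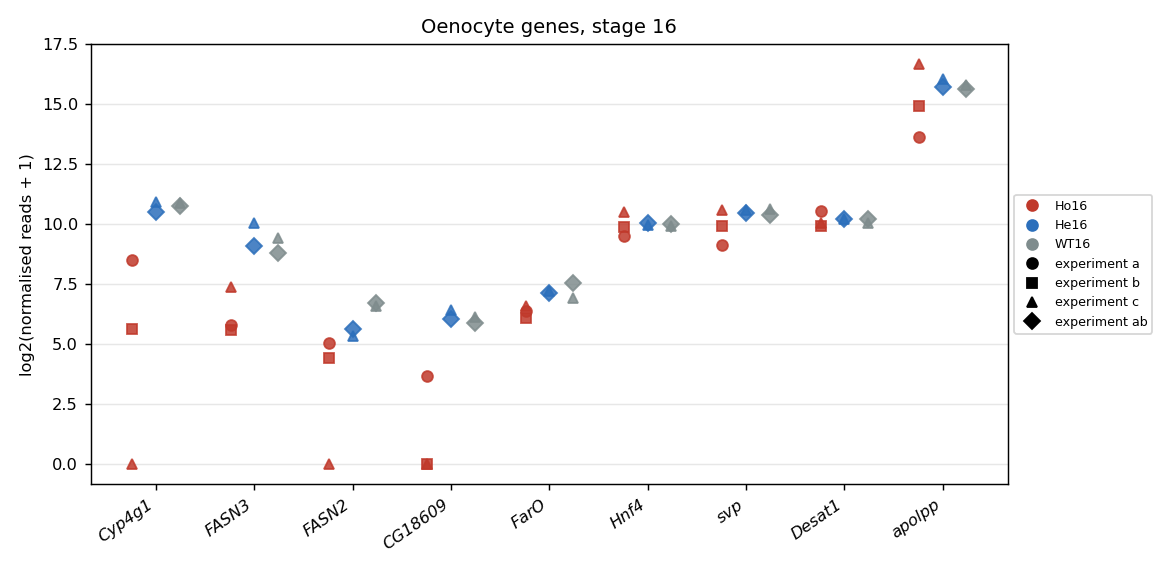
Log2 of normalised reads plus 1 (y axis) of 9 of the 16 listed oenocyte genes (x axis) in each stage 16 library. Ho16 is in red left of He16 in blue, and WT16 is in grey. Cyp4g1, FASN3, FASN2, CG18609 and FarO lie below He16 in all 3 Ho16 libraries, and the ranges of Hnf4, svp, Desat1 and apolpp overlap.

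The gene with the smallest limma p was CG1544, a gene for an oxoglutarate dehydrogenase-like enzyme. It had 47.6, 16.4 and 83.6 normalised reads in Ho16, against 689.2 and 523.7 in He16 and 1178 and 834.4 in WT16. The groups were well apart, with a difference of -3.91 ± 0.51, a limma adjusted p of 0.0563 and an exact test adjusted p of 6.49e-06. The adjusted p of CG1544 ranged from 4.87e-05 (library weights) to 0.951 over 20 alternatives fitted with limma. Within experiments a and b the difference was -4.56, and within c it was -2.86.

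The genes CG2233 and hlk had low values in Ho16a and Ho16b and much higher ones in Ho16c. CG2233, a gene of unknown function, had 3.97, 4.11 and 181.0 normalised reads in Ho16, against 365.7 and 393.6 in He16, and 1573 and 1345 in WT16. For hlk, which the study lists under an older name, there were 119.1, 154.0 and 812.0 in Ho16, against 1175 and 1356 in He16. Both genes lay below He16 in every Ho16 library, and the limma adjusted p was 0.71 for each with all libraries. Without Ho16c it was 1.56e-04 for CG2233 and 4.20e-04 for hlk, the only genes then called by limma at 0.001. In CG2233 the He16 libraries also lay below WT16, so that the order was Ho16, He16 and WT16.

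Other leading lower genes had varied roles. Cpr64Ad, a cuticle protein gene, had 786.1, 65.7 and 514.4 normalised reads in Ho16, against 2033 and 1476 in He16 (exact test adjusted p = 9.71e-04). Mal-B1, a maltase gene, had 31.8, 45.2 and 0 in Ho16, against 268.8 and 252.4 in He16 (exact test adjusted p = 2.89e-04). Both were called by the exact test, and limma with equal weights called neither at 0.001 or 0.05. CG7910 had 31.8, 2.05 and 0 in Ho16, against 109.3 and 153.9 in He16, and CG17109 had 222.3, 39.0 and 0 in Ho16, against 291.7 and 279.8 in He16. In Tbh, the tyramine beta-hydroxylase of octopamine synthesis, there were 15.9, 45.2 and 72.6 in Ho16, against 152.5 and 211.7 in He16. dpr1, an immunoglobulin superfamily gene of neurons, had 43.7, 78.0 and 38.6 in Ho16, against 184.2 and 220.2 in He16. CG7910, CG17109, Tbh, dpr1, Tob and LpR1 (a lipoprotein receptor gene) passed neither test. CG11825, also called lower by the exact test, had 47.6, 102.7 and 231.5 in Ho16, against 45.0 and 4334 in He16, so that its call rests on He16c, and its difference was positive without that library. CG11825 was named here after its values were seen.

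Among the genes higher in every homozygous library, CG3355 had 345.4, 287.5 and 424.4 normalised reads in Ho16, against 31.7 and 11.6 in He16 and 23.99 and 27.9 in WT16. CG18547 had 250.1, 457.9 and 128.6 in Ho16, against 35.3 and 35.9 in He16. CG10184 had 432.8, 186.9 and 202.1 in Ho16, against 93.4 and 24.9 in He16. The 3 Ho16 libraries lay above both He16 and both WT16 libraries in each of these genes. The differences were 3.70 ± 1.15 for CG3355, 2.59 ± 0.60 for CG18547 and 2.23 ± 0.55 for CG10184, with exact test adjusted p-values of 1.66e-16, 1.95e-07 and 6.65e-05. The limma adjusted p was 0.71 for each. Within experiment c the differences were 4.49, 1.56 and 2.59, and within experiments a and b they were 3.08, 3.10 and 1.68.

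Among other leading higher genes, su(r), the dihydropyrimidine dehydrogenase gene, had 1247, 462.0 and 712.8 in Ho16, against 278.5 and 229.3 in He16 (exact test adjusted p = 2.64e-04). Polr2F, a subunit of RNA polymerase II, had 1870, 782.4 and 755.0 in Ho16, against 299.6 and 369.2 in He16 (exact test adjusted p = 1.96e-04). Inos, the inositol phosphate synthase gene, had 2525, 562.7 and 380.3 in Ho16, against 265.3 and 309.0 in He16 (exact test adjusted p = 7.03e-05). The highest value of each was in Ho16a, and all 3 were called by the exact test. In WT16, there were 638.4 and 629.0 for su(r), 339.0 and 432.9 for Polr2F and 557.0 and 322.4 for Inos. Both WT16 values of su(r) and the higher of Inos lay within the Ho16 range, and those of Polr2F lay below it. CG31313, CG17776, CG3527, CG9427 and CG4893 were called by the exact test too, while sala, Sec61gamma, gas, Sas10, Adat1, Cyp305a1 and CG30344 were not. For CG30344, WT16 had 1249 and 1097, within the Ho16 range as well.

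Of the 77 genes the exact test called higher, 28 lay above both He16 libraries in every Ho16 library. In 46 of the 77 the highest Ho16 value was in Ho16c and in 29 in Ho16a. Without Ho16c the test kept 15 of the 77, and without either He16 library 0. Of the 8 called lower, 7 had no overlap, 6 were kept without Ho16c, 1 without He16ab and 2 without He16c. A group left with 1 library takes its spread from the other group in this test.

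Drsl5, the drosomycin-like peptide gene that the study calls dro5, was called higher although 1 Ho16 library lay within the He16 range. It had 6341, 1179 and 190.1 normalised reads in Ho16a, Ho16b and Ho16c, against 289.1 and 164.2 in He16 and 0 and 8.15 in WT16. The Ho16c value fell between the He16 values, although the exact test adjusted p was 1.98e-16 and limma's was 0.71. Within experiments a and b the difference was 4.10, and within c it was 0.22. The study also reports higher dro5 in Ho16 than in wild type by Q-PCR of independent RNA. The other 8 tested antimicrobial peptide genes had overlapping ranges, and the median of the 9 was 0.

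The cuticle genes TwdlM and Cpr100A had their highest stage 16 values in Ho16c. TwdlM had 428.8, 51.3 and 4047 normalised reads in Ho16, against 711.2 and 77.3 in He16, and 1210 and 30.8 in WT16. Cpr100A had 11.9, 4.11 and 305.0 in Ho16, against 13.22 and 9.73 in He16. Both ranges overlapped, and the exact test gave adjusted p-values of 2.11e-10 and 8.83e-06. At stage 17 TwdlM had 73430, 109600 and 107300 in Ho17, against 120400 and 117600 in He17, so that the values of all stage 16 libraries were small beside them. Of 55 tested cuticle and chitin genes, of median length 1060 bases, 5 lay above and 7 below He16 in every Ho16 library, beside 7.95% and 10.3% of all tested genes, and the exact test called 6 higher, beside 0.665% of all tested genes. The median of the list differed in sign between the libraries, at 0.17 in Ho16a, -0.70 in Ho16b and 0.97 in Ho16c. A set of 776 genes had all WT17 values above both WT16 values and group means at least 3 log2 units apart. Their median departure from the WT16 mean was 0.10, -0.17 and 0.00 in the Ho16 libraries, against 0.53 and -0.06 in He16. For the 171 genes lower in WT17 by the same rule, it was -0.22, -0.26 and -0.39 in Ho16, against -0.19 and -0.03 in He16. The part of developmental age in the cuticle values was not tested.

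Of the 13 mitochondrially encoded mRNAs, 12 had overlapping ranges. mt:Cyt-b, the cytochrome b transcript, had 6051, 2039 and 22910 normalised reads in Ho16, against 620.4 and 7479 in He16. mt:CoI, a subunit of cytochrome c oxidase, had 27470, 10260 and 54920 in Ho16, against 4899 and 27280 in He16. The c libraries were highest in both genotypes, and the Ho16 and He16 ranges overlapped. Between libraries of the same letters the difference had one sign, at 3.24 and 2.02 for mt:Cyt-b and mt:CoI in a and b, and 1.77 and 0.90 in c. The median of the 13 mRNAs was 1.59 in the pooled comparison, 2.42 within a and b and 1.54 within c, with 0 called by limma with or without the replicate block. By library it was 1.63 in Ho16a, -0.24 in Ho16b and 3.54 in Ho16c, and the He16 minus WT16 median was 1.60. With library weights the differences of mt:CoII, mt:ND1 and mt:ND4 were negative. Only mt:ND6, at 91.3, 26.7 and 168.1 in Ho16 against 7.05 and 3.65 in He16, had no overlap and was called by the exact test (adjusted p = 7.91e-07). In a library of polyadenylated RNA these levels also depend on how the transcripts were captured, which was not tested.

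Transcript length moved with the differences of single Ho16 libraries. Genes averaging at least 10 CPM were split into 5 classes of equal size by their longest annotated transcript. In Ho16a the median difference from the He16 mean was 1.31 in the shortest class (267 to 1280 bases) and -1.37 in the longest (4273 to 71382 bases). In Ho16b these medians were 0.27 and -0.53, and in Ho16c -0.14 and 0.19. Of the shortest class, 253 of 1488 genes lay above He16 and 39 below in every Ho16 library, whereas of the longest, 10 of 1487 lay above and 293 below. Median lengths are therefore given with the gene lists of the next paragraphs. Of the lists above, the oenocyte genes had a median length of 1996.5 bases and the antimicrobial peptide genes 449. With the length trend removed from each library, their median differences were -0.96 and -0.47, against -0.12 for all tested genes.

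The 44 tested nuclear subunits of oxidative phosphorylation, with a median length of 912 bases, had a median difference of 0.80. By library it was 2.21 in Ho16a, 0.53 in Ho16b and -0.26 in Ho16c, and 10 of the 44 had no overlap, all higher, beside 7.95% of all tested genes and the 253 of 1488 in the shortest length class. Among them, ATPsynB, a subunit of ATP synthase, had 13430, 3918 and 2638 normalised reads in Ho16, against 2454 and 1762 in He16, and SdhC, of succinate dehydrogenase, had 6091, 1690 and 1074, against 1065 and 819.4. The median of the list was 0.43 with the length trend removed from each library. The 77 cytoplasmic ribosomal protein genes, of median length 877 bases, had medians of 1.73, 0.51 and -0.57 in the 3 Ho16 libraries, and 2 lay above He16 in all, beside 7.95% of all tested genes. Their pooled median was 0.52, and 0.10 with the length trend removed.

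The 39 tested genes of neuronal function, of median length 6742 bases, had medians of -1.72 in Ho16a, -0.85 in Ho16b and 0.56 in Ho16c, and 7 of them lay below He16 in every library, beside 10.3% of all tested genes and the 293 of 1487 in the longest length class. nAChRalpha1, a subunit of the nicotinic acetylcholine receptor, had 31.8, 73.9 and 56.0 normalised reads in Ho16, against 168.3 and 201.3 in He16. scrt, a neuronal zinc finger gene, had 317.6, 659.2 and 597.0 in Ho16, against 1138 and 1002 in He16. Each was lower in every Ho16 library, at -1.69 ± 0.44 and -1.40 ± 0.51, and neither passed a test (limma adjusted p = 0.71 for both, exact test adjusted p = 0.119 and 0.169). With the length trend removed, the median of the list was -0.21, against -0.71 before and -0.12 for all tested genes.

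The 34 genes of neuronal adhesion and axon growth, of median length 6874 bases, had a median difference of -0.68, and -0.00 with the length trend removed. futsch, a microtubule-associated protein gene of axons, had 254.1, 716.7 and 759.6 normalised reads in Ho16, against 1159 and 1067 in He16, and was 1 of 3 members lower in every library, beside 10.3% of all tested genes. Among the adhesion genes that the study followed from its earlier work, N (Notch) lay below He16 in all Ho16 libraries, with 1060, 1992 and 1938 against 2001 and 2239. The ranges of arm, CadN, Fas2, Fas3 and Nrg overlapped. CadN, the neuronal cadherin gene, had 1274, 2719 and 5645 in Ho16, against 4737 and 4952 in He16, and arm, the beta-catenin gene, had 22550, 13490 and 12600 in Ho16, against 14730 and 14350 in He16. None of the 6 passed either test, and the difference of N was positive with the length trend removed.

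Most genes of the neuroblast, tracheal, glial and sensory organ lists had overlapping ranges. Of 17 neuroblast genes, of median length 3338 bases, 5 lay below He16 in every Ho16 library and 0 above, beside 10.3% and 7.95% of all tested genes. Their median difference was -0.53, and -0.22 with the length trend removed. hb, a temporal identity factor of neuroblasts, had 83.4, 139.6 and 93.7 normalised reads in Ho16, against 370.1 and 267.0 in He16. It was lower by 1.69 ± 0.46 on the log2 scale (limma adjusted p = 0.71, exact test adjusted p = 0.0844). Of 18 tracheal genes, of median length 3118 bases, 2 lay above and 4 below, beside the same shares of all tested genes. btl, the FGF receptor gene of tracheal cells, had 154.8, 277.2 and 327.9 in Ho16, against 115.4 and 69.4 in He16 (exact test adjusted p = 0.00843). Of 20 glial genes, of median length 3004 bases, 1 lay above and 1 below, and of 17 chordotonal and sensory organ genes, of median length 4760 bases, 0 above and 2 below. The exact test called 0 genes of the neuroblast, tracheal, glial and chordotonal lists at 0.001, and limma also 0.

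Stress genes differed mostly between the Ho16 libraries. The median of 20 heat shock protein genes, of median length 2336 bases, was 2.65 in Ho16a, -0.13 in Ho16b and -2.73 in Ho16c. Hsp26, a small heat shock protein gene, had 18880, 5158 and 145.1 normalised reads in Ho16, against 2807 and 6227 in He16, and 6455 and 372.4 in WT16. Hsp23 had 21130, 9360 and 1197 in Ho16, against 3472 and 6844 in He16. The spread within Ho16 was wider than the distance between the groups for both. Hsp60A, the mitochondrial chaperonin gene, had 61190, 16930 and 13540 in Ho16, against 8606 and 8778 in He16, and lay above He16 in every library without passing a test (limma adjusted p = 0.71, exact test adjusted p = 0.0495). Sod1, the cytosolic superoxide dismutase gene, had 4721, 1382 and 1097 in Ho16, against 785.2 and 924.6 in He16 (exact test adjusted p = 0.00686), and was 1 of 5 higher and 1 lower among 38 antioxidant and glutathione transferase genes, of median length 859 bases, beside 7.95% and 10.3% of all tested genes.

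**Figure D4:**
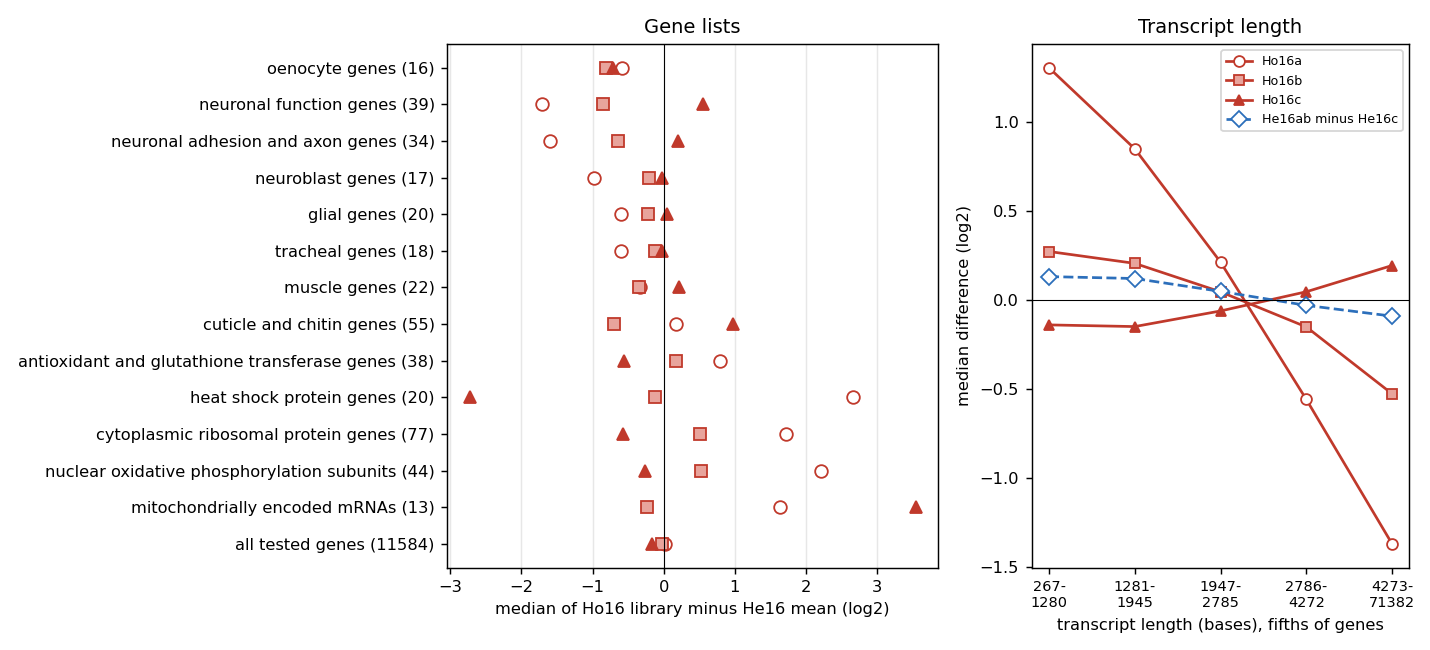
Left, median difference of each Ho16 library from the He16 mean (log2, x axis) for gene lists (y axis, number of tested genes in brackets); right, the same median by 5 classes of transcript length in bases, with He16ab minus He16c in blue. The oenocyte medians lie between -0.81 and -0.59 in the 3 Ho16 libraries, while those of most other lists are spread or differ in sign; for Ho16a the median is 1.31 in the shortest class and -1.37 in the longest.

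The stage 17 libraries, of other embryos, were used to see which of these differences recurred. Limma called 0 genes between Ho17 and He17 at 0.001 (307 higher and 267 lower at an unadjusted p below 0.05), and the exact test called 248 higher and 81 lower. All Ho17 values lay above both He17 values in 12.4% of tested genes and below in 14.2%. Of the genes without overlap at stage 16, 15.7% of the higher and 16.7% of the lower had the same order without overlap at stage 17, close to those background shares. The limma test of the difference between the stages called 0 genes (320 and 215 at an unadjusted p below 0.05).

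Some of the leading genes had the same order of the groups at stage 17. Of the 15 lower genes named by the size or p of their difference, 7 were also lower in every Ho17 library, and of the 18 higher genes also 7 were higher. Of all tested genes, 14.2% were lower and 12.4% higher in every Ho17 library. The 7 lower genes were salm and salr, which the deficiency removes, and Cyp4g1, FASN3, CG1544, CG7910 and Cpr64Ad. Cyp4g1 had 30.7, 69.8 and 22.1 normalised reads in Ho17, against 1580 and 2144 in He17. CG1544 had 227.7, 124.3 and 142.2 in Ho17, against 905.8 and 730.0 in He17, and Cpr64Ad had 1530, 1174 and 1834, against 10810 and 15030. The differences at stage 17 were -6.16 ± 1.31, -2.77 ± 0.51 and -3.83 ± 0.85 (SE), and the exact test adjusted p-values there were 2.19e-45, 6.66e-09 and 4.98e-20. Of the 16 oenocyte genes, 11 were lower and 1 higher in every Ho17 library, beside 14.2% and 12.4% of all tested genes. Their median difference was -1.64, against -0.03 for all tested genes. CG2233, hlk, dpr1, Tob, LpR1 and Tbh did not recur, and CG2233 had 879.9, 745.5 and 572.9 in Ho17, against 956.2 and 725.1 in He17.

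Among the higher genes, CG18547 had 735.3, 1008 and 555.0 normalised reads in Ho17, against 311.2 and 246.6 in He17, and CG31313 had 324.0, 571.1 and 217.1, against 50.4 and 82.5. Both were called higher by the exact test at stage 17, with adjusted p-values of 1.67e-04 and 1.44e-07. CG3355, the highest at stage 16, had 49.02, 0 and 51.9 in Ho17, against 0 and 16.9 in He17, and the ranges overlapped. The differences at stage 17 were 1.75 for CG18547, 2.45 for CG31313 and 1.21 for CG3355.

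**Figure D5:**
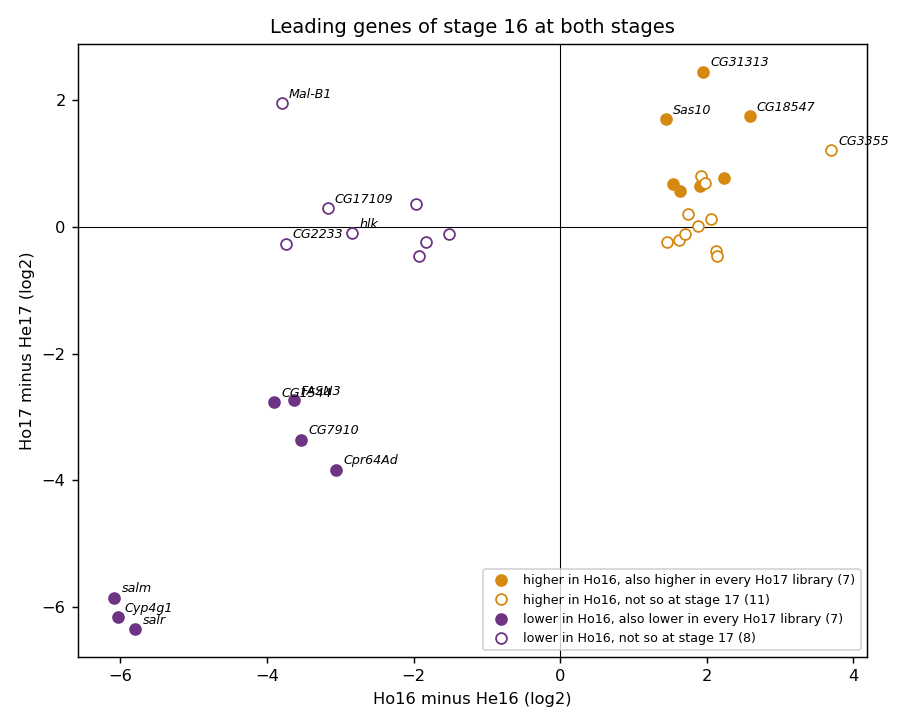
Ho17 minus He17 difference (log2, y axis) against the Ho16 minus He16 difference (log2, x axis) for the 33 leading genes; filled points had the same order without overlap at stage 17. The filled points of the lower genes, 7 of 15 with salm and salr among them, all lie below -2.5 on the y axis. Mal-B1 is the lower gene that lies highest.

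The comparison with wild type shows what the Ho16 and He16 groups shared. CG4306 had 718.6, 677.7 and 964.5 normalised reads in Ho16 and 487.4 and 647.8 in He16, against 2.09 and 1.75 in WT16. It was the only gene called by limma at 0.001 in either group against WT16, at 6.72 for Ho16 (adjusted p = 8.9e-05) and 6.12 for He16 (adjusted p = 7.66e-04). Both comparisons share the WT16 libraries. sgl, the UDP-glucose dehydrogenase gene, had 2088, 1583 and 1462 in Ho16 and 1611 and 2246 in He16, against 5436 and 5785 in WT16. Cyp12c1 had 19.9, 10.3 and 55.1 in Ho16 and 21.2 and 18.3 in He16, against 551.8 and 329.9 in WT16. In all 3 genes the values of both groups were on one side of wild type, and the Ho16 minus He16 differences of CG4306, sgl and Cyp12c1 were 0.60 ± 0.50, -0.22 ± 0.33 and 0.18 ± 0.54 (log2, SE), none past a test. For salm and salr the He16 values were near those of WT16, which were 1197 and 1543 for salm and 786.5 and 965.9 for salr.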

How the data were processed

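The series measured mRNA by sequencing in 14 libraries of 3 genotypes at stages 16 and 17; 1 label field gives stage 16 for all of them, so stages were taken from the titles. The authors aligned reads with Bowtie, counted them on FlyBase genes and deposited log2-scale values made by the variance-stabilizing transformation of DESeq, after division by size factors. Tool versions were not given in the sources used here. Whole reads were recovered by inverting the transformation: of the 158533 values above that of 0 reads, 99.98% came within 0.05 of a whole number. Libraries held between 4760303 and 23213628 reads on genes. From counting error alone, a gene without reads could still stand for 3, which weighs most in the shallowest library, Ho16a. That limit does not describe all zeros of Ho16c. There, 26 genes had 0 reads despite at least 10 CPM in all other stage 16 libraries, against 0 such genes in Ho16a.

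Tests used limma 3.58.1 in R 4.3.3 on the deposited values, with 6 condition means over all 14 libraries, an empirical Bayes trend and Benjamini-Hochberg adjustment over 11584 genes. These had 15 or more reads over all libraries, and 2 or more libraries in which the reads, scaled to the median depth, reached 10. The exact negative binomial test was run on recovered reads. Adjusted p-values under 0.001 were called. Both were also run on simulated reads with the same spread in every library. The Ho16 libraries differed more, so that run does not show how either test performs on these data. In limma the spread of a gene was taken within the 6 conditions of all 14 libraries and drawn toward a trend over genes. The exact test took the spread from a smooth curve of variance on level over all genes, not from the gene itself. Neither p-value reaches beyond these pools. Members and lists were chosen with earlier results of these data known.

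Genes were named if they belong to the spalt locus, if the study names them, if they were among the 10 leading genes per direction by limma p, difference or exact test p, with no overlap and at least 10 CPM in the higher group, or as members of the lists; exceptions are named as such. RefSeq gave names for 96% of the genes, and the Ensembl annotation transcript lengths for 96.2% of tested genes; both are of Release 6, a later release than the one the authors counted on, so no coordinates are given. The reads of 759 genes equalled those of another gene in all libraries, and strand was not given, so overlapping genes on opposite strands cannot be told apart. The comparisons within experiments pair libraries by letter only, c with c and a, b with ab, and a shared experiment was not established. The correlation of deviations from the group means was 0.23 for Ho16c with He16c. Alternatives were other filters, pseudocounts, scalings, weights, depth, a block, the exact test and leaving out each Ho or He library, but no WT library. The length trend, total scaling and the exact test without each Ho or He library were added after seeing the data.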

Additional observations from a re-analysis of the deposited data

Results flagged for a closer look

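For 4 named genes, the Ho against He difference had opposite directions at the stages. Every Ho library lay on one side of both He libraries at stage 16 and on the other at stage 17. Among all tested genes, 108 of the 921 higher without overlap at stage 16 were lower without overlap at stage 17. Of the 1195 lower, 135 were higher. With the length trend removed, the stage 16 difference was -3.98 for Mal-B1, 1.69 for CG9427, 1.52 for Hsp60A and -0.24 for Dlg5. The stage 17 minus stage 16 difference of the contrast was 5.75 for Mal-B1, -2.59 for CG9427, -1.87 for Hsp60A and 1.34 for Dlg5 (log2). In limma this difference had unadjusted p-values of 0.0026, 0.0174, 0.023 and 0.0272, and adjusted p-values of 0.821 for Mal-B1 and 0.877 for the other 3, so none passed. Mal-B1 had 259.2, 82.6 and 109.8 normalised reads in Ho17, against 51.3 and 11.98 in He17, the reverse of the order at stage 16. Groups of 2 or 3 libraries are too small for a test of single outlying libraries.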

How the results depend on the processing

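With limma, 0 genes were called between Ho16 and He16 without the filter, with only the 5 libraries, with the replicate block, with either pseudocount, with thinned reads, with centred or total-scaled libraries, with the length trend removed and at 0.05. The calls were 9 with library weights, 2 without Ho16c and 85 with the exact test. Over all fits that leave out 1 library the count ran from 0 to 166, the latter from the exact test without Ho16b; with the exact test it was 70 without Ho16a, 44 without Ho16c, 1 without He16ab and 2 without He16c. Between Ho17 and He17 the calls were 0, with 4 under library weights and 329 with the exact test, and from 0 to 362 when 1 library was left out. No gene was called for the difference between stages in any fit run. Only Ho and He libraries were left out, so no fit left out a WT16 library. Against WT16, He16 had 1 call, 0 without the filter or with the length trend removed, 9 with library weights and 78 with the exact test, and 0 to 1 with 1 library left out. Ho16 against WT16 had 1 call, 0 with the length trend removed, 11 at 0.05, 44 with library weights, 237 with the exact test, and 1 to 8 with 1 library left out.

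The difference of salm was -5.21 with the exact test, which called it, and ran from -7.20 to -4.64 with 1 library left out. That of salr was -5.60 with library weights and -4.72 with the exact test, both called, -8.05 within experiment c, and from -7.20 to -4.13 with 1 library left out. Of the other 79 named genes, 55 kept their sign under all alternatives fitted and 24 did not. Library weights, under which Ho16b counts by far the most within Ho16, reversed Cog8 (0.60), Cpr100A (-0.49), Cyp12c1 (-0.45), Cyp304a1 (-0.0268), Hsp26 (0.28), TwdlM (-1.81), arm (-0.0759), mt:CoII (-0.19), mt:ND1 (-0.70) and mt:ND4 (-1.29). The exact test reversed Cog8 (0.93), Desat1 (0.0122), Hnf4 (0.0039) and Hsp26 (0.84), the replicate block reversed Hsp23 (-0.0751), median centring Desat1 (0.0324) and total scaling arm (-0.0864). Removal of the length trend reversed Cyp12c1 (-0.0145), Hnf4 (0.28), Hsp23 (-0.13), N (0.20) and Nrg (0.0775). With 1 library left out, signs changed in the ranges of CG11825 (-6.46 to 1.5015), Cog8 (-2.74 to 1.71), Cpr100A (-0.52 to 3.79), Cyp12c1 (-0.39 to 0.93), Cyp4p2 (-2.72 to 1.33), Desat1 (-0.27 to 0.15), Hnf4 (-0.43 to 0.24), Hsp23 (-0.74 to 1.77), Hsp26 (-2.79 to 1.52), TwdlM (-0.72 to 4.29), apolpp (-1.48 to 0.16), arm (-0.17 to 0.31), mt:CoI (-0.19 to 2.66), mt:Cyt-b (-0.32 to 4.28), mt:ND1 (-1.32 to 4.86), mt:ND4 (-1.35 to 4.63), sgl (-0.54 to 0.0917), spz4 (-1.11 to 0.18), tko (-0.28 to 1.23) and w (-0.16 to 6.87). The causes were not tested. Depth limits genes of few reads, above all in Ho16a and Ho16b.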

Other observations

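The median of all tested genes was -0.13 (log2), and 7.95% of them lay above and 10.3% below He16 in every Ho16 library. The 25 tested autophagy genes had a median of -0.07, with 4 above and 1 below He16 in every Ho16 library, and the 19 cell death genes had -0.31, with 2 above and 3 below. The 19 hemocyte genes had -0.18, the 22 muscle genes -0.15 and the 16 immune induced peptide genes -0.07, and the exact test called 0 in these lists. The 19 midgut genes had a median of -0.24 (2 above, 4 below), the 9 fat body genes 0.07 (2 above, 0 below), the 10 germ cell genes -0.17 (2 above, 1 below), the 2 metallothionein genes -0.10 and the 2 sex dosage genes -0.21, with 0 exact test calls. Of 8 redox genes that the study names, 2 lay below He16 in every Ho16 library, with a median of -0.02. The list medians of this paragraph are not corrected for transcript length. With the length trend removed, that of the immune induced peptide genes, of median length 425.5 bases, was -0.54. The gene w, which is mutant in the males of the heterozygous cross, had 1290, 423.0 and 0 normalised reads in Ho16, against 149.8 and 4.87 in He16, and 520.5 and 467.8 in WT16. The c library was the lowest in both Ho16 and He16, and the ranges of w overlapped.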
